A study of Mus musculus with 4 samples.

Results

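The sodium pump and the calcium pumps of the P-type ATPase family set the ion gradients on which neurons depend, and 4 genes of these pumps described here carried contacts of the RNA-binding protein IMP2 in embryonic mouse brain. They were taken as the genes of the deposited cluster list whose symbol begins with Atp1b, Atp2a or Atp2b, which gave Atp1b1, Atp2a2, Atp2b1 and Atp2b2. These 4 genes held 9 distinct clusters, out of 761 genes and 1828 clusters in the whole list. The contacts were mapped by HITS-CLIP, in which ultraviolet light joins a protein to the RNA it touches and the fragments that come down with an antibody to the protein are sequenced. All 4 libraries came from whole brains of Swiss Webster mice at embryonic day 14, an outbred stock, with no genetic change or treatment given in the labels, and formed a single group of IMP2 immunoprecipitates. The deposited list gives 1 set of values for the series, so no value below has a replicate error and no test over samples could be made. No control immunoprecipitation and no measure of RNA abundance was analysed here, so strong binding and an abundant transcript cannot be told apart.

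The sodium pump moves sodium out of the cell and potassium in at the cost of ATP. It pairs a catalytic subunit with a beta subunit that brings the complex to the plasma membrane. SERCA pumps load calcium into the endoplasmic reticulum, and plasma membrane calcium pumps (PMCA) expel it from the cell after a signal, with calmodulin as their activator. IMP2, encoded by Igf2bp2, belongs to a family of proteins that bind mRNA, often in the 3' untranslated region (3' UTR), and affect its transport, stability and translation.

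A cluster is a stretch of overlapping CLIP tags, and its height, a score given by the authors, is read here as the largest number of tags that overlap in it. The deposited fold is the height over a level that the file does not define. Over the whole list the median height was 30.0, with an interquartile range of 24.0 to 39.0, and the median fold was 5.40. The lowest deposited height was 18 and the lowest fold 2, so clusters below these values do not appear. Of the 11 mouse genes with such symbols, 4 were listed (36.4%), beside 3.47% of all protein-coding genes. The listed genes were 1 of the 4 Atp1b genes, 1 of the 3 SERCA genes and 2 of the 4 PMCA genes. The Atp1b genes were grouped as sodium pump beta subunits by symbol alone. This count describes a family chosen with the list in view, and nothing was tested on it.

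Apart from the Atp2a2 clusters of heights 72 and 40, pump clusters lay within or below the interquartile range of heights in the list (24.0 to 39.0). The 9 heights were 72, 40, 38, 30, 26, 26, 24, 21 and 21, with a median of 26.0. Only 3 of the 9 clusters were taller than the median of the list, a share that is 46.9% over all clusters. By fold 6 of the 9 lay above the median, against 49.9% of all clusters.

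**Figure D1:**
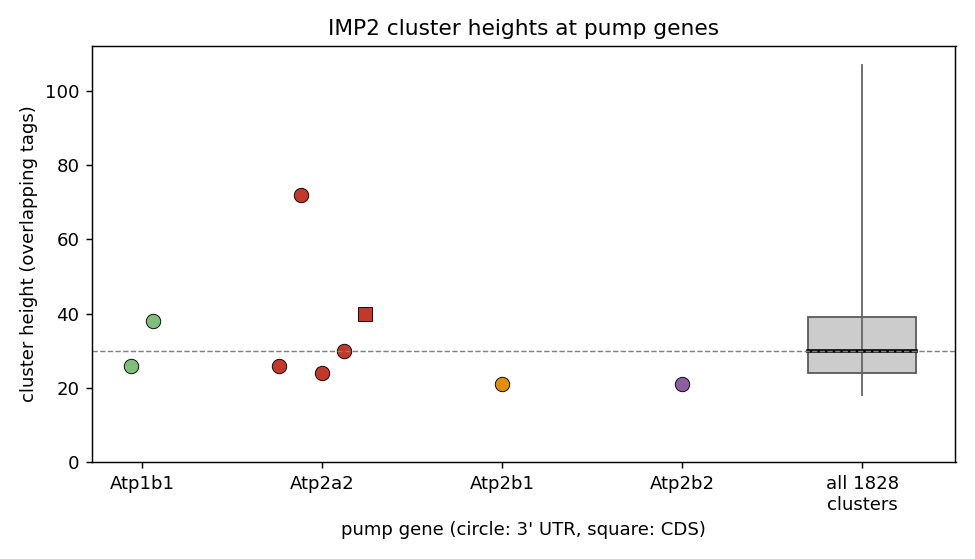
Height of each IMP2 cluster (overlapping tags, linear axis) at the 4 pump genes, beside all 1828 clusters of the list, drawn as a box from 24.0 to 39.0 with the median of 30.0 and a line from 18 to 107. Circles are clusters in a 3' UTR and the square is the Atp2a2 cluster at the end of its coding sequence; 1 Atp2a2 cluster at 72 stands above all others of the family, which lie between 21 and 40.

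Atp1b1, the gene of the main beta subunit, carried 2 separate contacts. Both clusters lay in the first part of its 3' UTR of 1009 bases, on chromosome 1 (mm9, minus strand). The first, at 166368121 to 166368164, had a height of 38 and a fold of 6.89 and covered bases 243 to 286 of the 3' UTR. The second, at 166367970 to 166368038, had a height of 26 and a fold of 5.32 and covered bases 369 to 437. A gap of 82 bases separated them. In fold, 73.2% and 47.7% of all clusters lay below them, so the second was close to the middle of the list. Together the clusters covered 11.2% of the 3' UTR, and the last 572 bases held none.

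Atp2a2 was the most densely bound pump gene. It encodes SERCA2, the calcium pump of the endoplasmic reticulum found in most cells, and is known to make a muscle form (SERCA2a) and a widespread form (SERCA2b) that differ at their 3' ends. The list placed its 5 clusters on 2 transcripts with separate 3' UTRs on chromosome 5 (mm9, minus strand), 2033 bases apart. The proximal 3' UTR, of NM_001110140, runs from 122906333 to 122907159 and was touched by 4 clusters. The distal 3' UTR, of NM_009722, runs from 122903522 to 122904299 and held 1. The files do not say which transcript encodes which form of the pump.

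The tallest pump contact was in the proximal 3' UTR of Atp2a2, at 122906493 to 122906668. Its height of 72 was exceeded by 43 of the 1828 clusters and its fold of 13.95 by 28. It was also wide, with 176 bases against a median width of 53.0 for the list, and only 3.50% of clusters were wider. It covered bases 492 to 667 of this 3' UTR of 827 bases. Upstream of it lay a cluster of height 24 and fold 3.67 (122906852 to 122906897), whose fold was the lowest of the family. Next toward the stop codon came a cluster of height 30 and fold 4.82 (122907057 to 122907100), at the median height of the list.

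The last of these clusters spanned the end of the coding sequence. It lay at 122907145 to 122907187, with 28 bases in the coding interval of the transcript and 15 bases in the 3' UTR. The list places it under CDS. Its height was 40 and its fold 6.29. It was the only pump cluster with its midpoint outside a 3' UTR, while 94.1% of all clusters had theirs inside one. Spanning this border was uncommon in the list, where 19 of 1828 clusters (1.04%) did so within a transcript that had a listed 3' UTR. Gaps of 44, 159 and 183 bases separated the 4 clusters of the proximal region.

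In the distal 3' UTR, the single Atp2a2 cluster lay at 122903610 to 122903656 and had a height of 26 and a fold of 6.06. It covered bases 644 to 690 of 778 and ended 88 bases before the 3' end. Clusters covered 34.0% of the proximal 3' UTR and 6.04% of the distal one. The amounts of the 2 transcripts were not measured here, so this unequal coverage and unequal amounts of the 2 transcripts cannot be told apart.

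**Figure D2:**
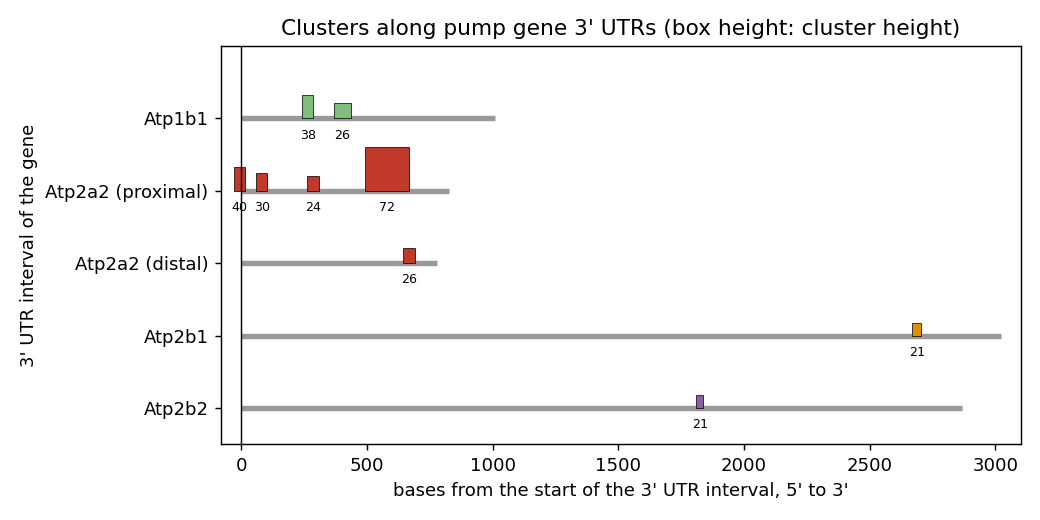
Clusters along the deposited 3' UTR intervals of the pump genes, in bases from the start of each interval and to scale, with box height proportional to cluster height and the height printed under each box. The 4 clusters of the proximal Atp2a2 interval, the first of which crosses its start, contrast with single clusters in the intervals of Atp2b1 and Atp2b2, which are 3024 and 2869 bases long.

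The PMCA genes carried the weakest contacts of the family by height. Atp2b1 encodes PMCA1, the form present in nearly all cells. Its cluster lay on chromosome 10 at 98488423 to 98488459 (mm9, plus strand) and had a height of 21 and a fold of 6.25. It covered bases 2670 to 2706 of a 3' UTR of 3024 bases, or 1.22% of it. Atp2b2 encodes PMCA2, a form of neurons and of the hair cells of the inner ear. Its cluster, on chromosome 6 at 113696693 to 113696721 (mm9, minus strand), had the same height of 21 but a fold of 12.0. It was shared by the 2 listed transcripts of the gene (NM_001036684 and NM_009723) and covered bases 1810 to 1838 of a 3' UTR of 2869 bases. At 29 bases it was the narrowest pump cluster, and 96.9% of all clusters were wider. Only 8.64% of clusters had a height below 21, so both genes lay close to the lower limit of the list.

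Height and fold ranked the pump genes differently. By its highest cluster, Atp2a2 stood above 96.1% of the 761 listed genes in height and above 96.5% in fold. Among the 27 genes with 5 clusters its height exceeded 81.5%, and by mean height it stood above 84.2% of listed genes. Atp1b1 stood above 67.7% in height and 57.2% in fold. The contrast was widest for Atp2b2, with 8.67% by height and 93.7% by fold. Atp2b1 had the same 8.67% by height and 45.9% by fold. Among the 419 genes with a single cluster, both PMCA genes exceeded 15.0% by height. Thus 2 of the 4 genes exceeded the median gene by height (31.0) and 3 of the 4 by fold (6.46).

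The level behind the fold can be read as height divided by fold. Its median over all clusters was 5.96. It was 1.75 for Atp2b2, a value that 0.438% of clusters fell below, and 3.36 for Atp2b1. It was 4.89 and 5.52 for the clusters of Atp1b1 and lay between 4.29 and 6.54 for those of Atp2a2. The 2 genes with a single cluster therefore had the lowest levels of the 4 genes. The file header does not say what this level measures.

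**Figure D3:**
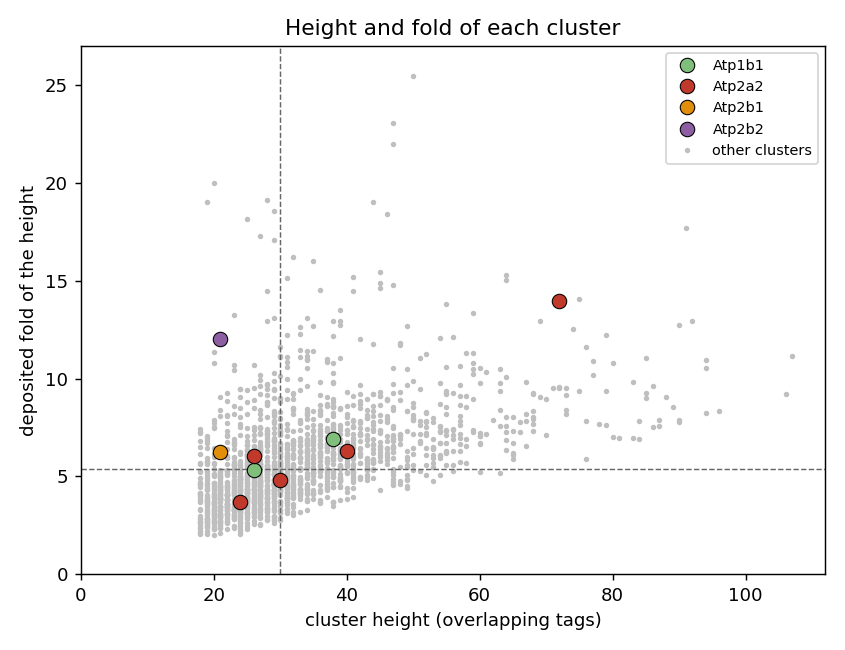
Deposited fold of the height against cluster height (overlapping tags) for the 9 pump clusters, coloured by gene, and all other clusters in grey; dashed lines mark the medians of 30.0 and 5.40. Atp2b2 lies at a low height with a high fold, and the tallest Atp2a2 cluster is high on both axes.

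Per length of 3' UTR the pump genes differed widely, but such values depend on that length. Each gene compared had at least 1 cluster, so a short 3' UTR cannot give a low value. The median 3' UTR of listed genes was 1998 bases. A longer one than that of Atp2a2 was listed for 85.3% of genes, and than that of Atp1b1 for 78.7%. For Atp2b1 and Atp2b2 these shares were 30.7% and 32.9%. The proximal 3' UTR of Atp2a2, its longest listed, was touched by 4.84 clusters per kilobase. This was more than in 97.8% of the 729 genes with a listed 3' UTR interval, whose median was 0.861. The distal one had 1.29, and the proximal count includes the cluster that is listed under CDS. Atp1b1 had 1.98, Atp2b2 0.349 and Atp2b1 0.331 clusters per kilobase. Coverage was 34.0% for Atp2a2 and 11.2% for Atp1b1, above a median gene of 4.70%, and 1.22% for Atp2b1 and 1.01% for Atp2b2, below it. The bound positions had a median of 51.7% of the way along the 3' UTR over 8 clusters. They ranged between 9.79% at an Atp2a2 cluster and 88.9% at Atp2b1.

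The other 7 genes of these subfamilies had no cluster that reached the list. Among genes with an Atp1b symbol they were Atp1b2, first described as an adhesion molecule of glia, Atp1b3 and Atp1b4. Among calcium pumps, Atp2a1 of fast skeletal muscle, Atp2a3, Atp2b3 and Atp2b4 were not listed. Each subfamily was thus present through some paralogs and absent through others. Absence means only that the list has no cluster for the gene, under limits that are not stated, and whether these transcripts were present in the tissue was not tested.

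Of 19 genes that work with the pumps, 4 were listed (21.1%, beside 3.47% of all protein-coding genes). Of 4 partners of PMCA pumps described here, 3 were listed. The calmodulin genes Calm2, with 2 clusters and a highest height of 39, and Calm3, with 1 cluster of height 42, were among them. Nptn, the gene of neuroplastin, a membrane glycoprotein that pairs with PMCA, had 1 cluster of height 32, and Bsg was not listed. Of 11 regulators of the sodium pump only Nkain1, which encodes a protein that interacts with its beta subunit, was listed, with 3 clusters and a highest height of 39, and none of the 7 Fxyd genes was. None of the 4 SERCA regulator genes in the reference table, phospholamban (Pln) and sarcolipin (Sln) among them, was listed.

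Of 32 genes of other routes of calcium, 5 were listed (15.6%, beside 3.47% of all protein-coding genes). Slc8a1, a sodium-calcium exchanger that expels calcium with the sodium gradient, was the only one of 9 exchanger genes listed, with 2 clusters, a highest height of 42 and a highest fold of 12.04. None of 12 genes of calcium release and entry, which include the IP3 and ryanodine receptors, Stim and Orai genes, was listed. Calcium buffers and chaperones of the endoplasmic reticulum and secretory pathway had 4 of 11, namely Canx (6 clusters, highest height 47), Calu (3, 45), Calr (1, 38) and Rcn2 (1, 32). Canx and Calr encode chaperones, and Calr is also the main calcium store protein of this organelle in many cells.

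Of 69 genes of other ATPases, 4 were listed (5.80%, beside 3.47% of all protein-coding genes). The P5 pump gene Atp13a3, linked to polyamine transport, had 1 cluster of height 25, the only one among 5 P5 genes. None of 14 flippase genes of the P4 group, 3 proton-potassium pump genes, 2 copper pump genes and 2 secretory pathway calcium pump genes was listed. Of 26 genes of the vesicular proton pump, Atp6v1a (height 29) and Atp6ap2 (24) were listed, and of 17 genes of the mitochondrial ATP synthase only Atp5a1 (35). Over these 13 lists 13 of 120 genes had a cluster (10.8%, beside 3.47% of all protein-coding genes), and 6 lists had none. The lists were chosen with earlier results in view and were not tested, and a count of 0 or 1 in lists of this length is not a result about the list.

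**Figure D4:**
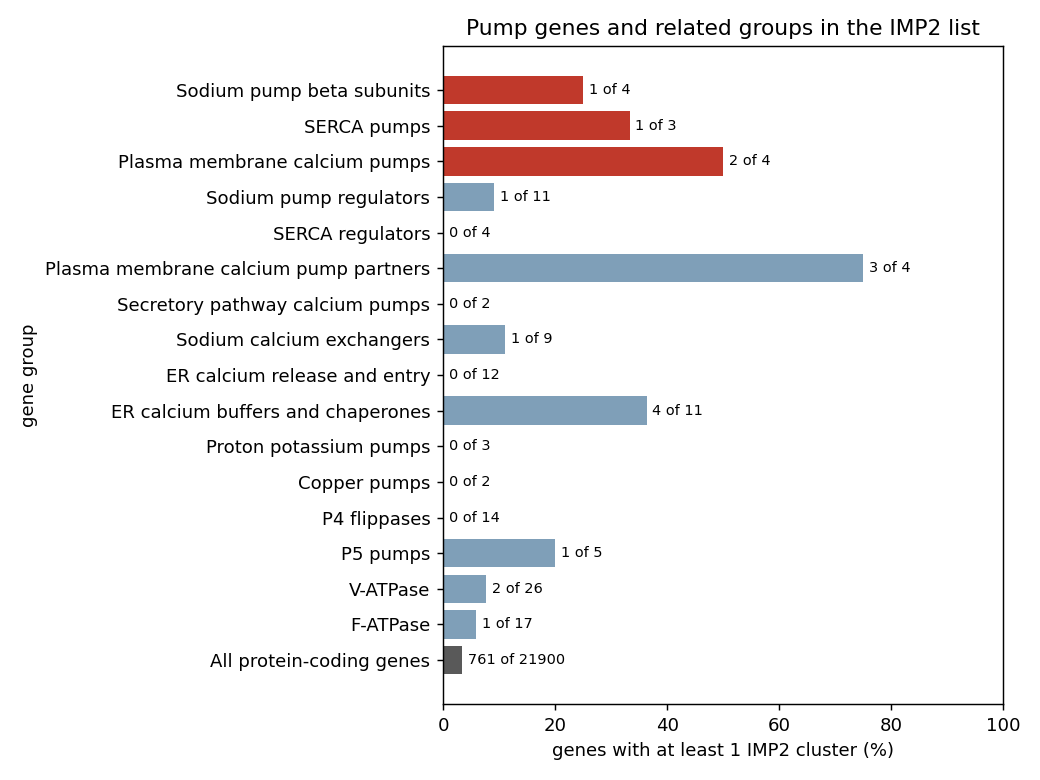
Share of genes with at least 1 IMP2 cluster (percent, linear axis from 0) in the 3 pump subfamilies (red), 13 related groups (blue) and all protein-coding genes (dark grey), with the counts beside each bar. Listed genes include 3 of 4 PMCA partners and 4 of 11 calcium buffers and chaperones of the endoplasmic reticulum, beside 3.47% of all protein-coding genes. Calcium release and entry (0 of 12) and P4 flippases (0 of 14) have none, which in lists of this length is not a result.

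Markers of brain and of other cell types were read beside the 3.47% of all protein-coding genes with a cluster. Neuronal markers had 4 of 6, Dcx (85), Stmn2 (85), Map2 (64) and Elavl3 (43) by highest height. Radial glia and progenitors had Vim (27) alone of 7, and choroid plexus Ttr (88) alone of 4. Of 6 astrocyte markers, Gja1 (38) and Slc1a2 (27) were listed. Red blood cell markers had 3 of 7, Hba-a1 and Hba-a2 through the same cluster of height 27 and Hbb-y with 23. Striated muscle and heart had 0 of 8, which in a list of this length is not a result.

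The genes most like each pump gene were found by the distance over 4 standardized measures on a log2 scale, namely number of clusters, highest height, highest fold and 3' UTR length, among 729 genes. Closest to Atp1b1 were Smarce1 (distance 0.0507) and Bcl11a (0.431). Atp2b2 was closest to Sema3a (0.300) and Mosmo (0.652), and Atp2b1 to Rock2 (0.431) and Spock1 (0.535). Atp2a2 had no near neighbour of this kind, its closest genes being Ina (0.985) and Pgrmc1 (1.10). The measures come from a single set of values for the series, so they compare shapes of entries in the list and not behaviour across conditions.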

How the data were processed

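IMP2 HITS-CLIP was made from brains of mouse embryos at day 14 in 4 libraries. Per the labels' protocols, tissue was irradiated at 254 nm with 3 exposures of 300 mJ/cm2 and RNA was trimmed with benzonase for 10 min. Mouse and rabbit antibodies to IMP2 are named, and which library used which is not stated. Bowtie, FastQC and mm9 are named in the submitters' processing notes, without versions. The sources used here do not give the cluster caller, its thresholds or any pooling of libraries. Height is a signal (pileup) value and fold a ratio, both deposited by the authors for each cluster. Depth per library is unknown, so heights carry no interval, and PCR duplicates were not checked.

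The 2865 lines, 1 per cluster and transcript, were reduced to 1828 clusters by position and strand. Starts were moved to a count from 1. Transcripts were matched to RefSeq GRCm38.p6 by accession (1088) or symbol (11), for names and the 21900 protein-coding genes only. A cluster was placed in a region by its midpoint. Coverage and clusters per kilobase refer to the longest listed 3' UTR of a gene and count every cluster that touches it. Percentages of clusters or genes below a value are plain ranks in the list, with ties not counted as below. Interval functions were tested on simulated intervals. Python 3.11.15 and pandas 2.3.3 were used.

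Some genes of this family and of the related lists are not reported here. Genes named are all members and paralogs, up to 4 listed genes per related list and the 2 nearest genes of each member. Members and lists were chosen with earlier results of these data known. Alternatives changed the height or fold limit, joining of clusters, region rule, gene level and 3' UTR interval. Cluster sequences and protein comparisons were not analysed here.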

Additional observations from a re-analysis of the deposited data

How the results depend on the processing

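The list gives a single set of values for the series of 4 libraries, so leaving out a library was not possible. No paired analysis was possible because no column holds values of a single library. The 4 pump genes were the same with the symbols of the file. They fell to 2 with only clusters taller than the median height, and to 2 with only genes of at least 2 clusters; in both settings these were Atp1b1 and Atp2a2. The 9 clusters fell to 3 with the height limit, and were 6 with folds above the median, 9 with touching clusters joined and 8 with clusters at most 50 bases apart joined. Pump clusters in a 3' UTR were 8 by midpoint, 9 by any base and 8 by all bases. Genes above the median gene were 2 by highest height, by mean height and among genes with the same number of clusters, and 3 by fold. Median coverage of the 3' UTR was 6.21%, with 3.63% for the shortest listed interval, which differs for Atp2a2 only, and 2.18% with the height limit. The median position of 51.7% was 48.0% by the first base and 53.7% by the last. Values for single genes moved by over 1.5 times in 14 of 36 cases, the share of listed genes below Atp2b1 and Atp2b2 in height (8.67%) among them, which was 15.0% among genes with the same number of clusters. Unknown depth limits every height, and a height of 21 lies 3 tags above the lowest one listed.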
